A study of Homo sapiens with 6 samples.

Results

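The genes described here are 53 human genes of the cell cycle and of DNA replication, chosen by name from a list of factors that copy DNA, divide the nucleus or time these events. The expression table held 47 of them among its 16625 genes. RRM2 of the replication genes, and CCNB2, AURKB, BIRC5, UBE2C and NUSAP1 of the mitosis genes, were not analysed here. The measured genes comprise 18 replication genes, 15 mitosis genes, 8 cyclins and kinases of the G1 phase and its exit, and 6 genes of the restraining side or its targets (inhibitors, RB1 and E2F). PolyA RNA was sequenced from human neurons grown out of induced pluripotent stem cells (iPSCs), in 3 libraries labelled PEDS1 knockout and 3 control libraries. PEDS1 makes the vinyl ether bond of plasmalogens, a class of ether lipids.

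Both groups came from iPSC lines derived from UCSFi001-A, and both carry a doxycycline-inducible NGN2 gene at the AAVS1 locus. NGN2 is a transcription factor that turns iPSCs into neurons, and doxycycline was given to both groups. The neurons were at day 10 to 14. All knockout libraries share 1 source name and all controls share 1, so a clone cannot be told apart from the genotype. The labels do not say whether replicates came from separate cultures, so the p-values cover the spread among these libraries alone, and that spread may be technical.

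Cells that divide pass through G1, in which D cyclins with CDK4 and CDK6 phosphorylate the RB1 protein and release E2F factors. E2F factors then switch on the enzymes and loading factors of DNA replication, and a later wave of genes for chromosome condensation, the spindle and its checkpoint is read in G2 and mitosis. Neurons have left the cell cycle, while iPSCs and neural progenitors divide, and several of these proteins also serve DNA repair or other tasks in cells that do not divide.

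Values are normalized counts, which are read counts divided by 1 size factor per library. Recovered reads numbered 17996634 to 28773664 in the libraries labelled knockout and 25275584 to 44573013 in the controls. PEDS1 itself stood at 836, 765 and 1349 normalized counts in replicates 1, 2 and 3 of the libraries labelled knockout, against 1360, 1347 and 1399 in control replicates 1, 2 and 3. By its PEDS1 level, the library labelled PEDS1 knockout replicate 3 therefore went against its label, since that level lay just above the lowest control. In the inhibitor gene CDKN1A it lay with the other libraries labelled knockout, at 141 normalized counts against 343 to 355 in the controls. In other genes, such as RFC3 and CCNB1, it was the library labelled knockout nearest to the controls. In STMN2, a neuron marker, replicates 1 and 2 of the libraries labelled knockout lay above every control, at 84085 and 84009 normalized counts. The library labelled replicate 3 lay below every control there, at 66060 against 67689 to 73514. Whether its label is right was not tested. The PEDS1 difference was -0.52 ± 0.17 on the log2(normalized count + 1) scale (SE, n = 3 each; limma adjusted p = 0.0725, exact two-sided permutation p = 0.2, where the smallest p the design allows is 0.1). Without that library it was -0.77 (limma adjusted p = 0.000147). Of all 16625 genes, 13.6% passed a limma adjusted p under 0.05, 5.95% higher and 7.69% lower in the libraries labelled knockout, and without that library 21.5% passed. Neuron markers were high in every library, with a summed level of 13546 to 14377 RPM (recovered reads scaled to the library total) in the libraries labelled knockout and 12272 to 12739 in the controls, and all 12 listed markers were measured. Of the 12 markers SLC17A7 (log2 difference 0.55), ELAVL4 (0.44) and NEFL (0.22) rose and TUBB3 (-0.70) and RBFOX3 (-0.36) fell. Neither fall passed after removal of GC and length trends (TUBB3 -0.45, limma adjusted p = 0.0547, and RBFOX3 -0.12, 0.1304). Both falls passed without the library labelled PEDS1 knockout replicate 3 (TUBB3 -0.89, limma adjusted p = 0.00289, and RBFOX3 -0.34, 0.0282).

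TOP2A, TPX2, CDK6, RFC3 and RB1 rose in the libraries labelled knockout, and none of the 47 measured genes fell. These 5 of 47 genes make 10.6%, beside 13.6% of all genes called in either direction, and beside 5.95% called higher. The other 42 genes did not pass the test. At an unadjusted limma p under 0.05 there were 14 genes, 12 higher and 2 lower. The median log2 difference was 0.08 over the 47 genes and -0.01 over all genes. In 17 genes all 3 libraries labelled knockout lay above all 3 controls, in 4 all lay below, and in 26 the groups overlapped. The 17 genes make 36.2%, beside 19% of all genes above in this way, and 18.2% of all genes lay below (37.1% in either way). Once the library labelled PEDS1 knockout replicate 3 was left out, 8 of the 47 genes were higher and 0 lower, beside 10.4% of all genes higher and 11.1% lower. FEN1, MCM6 and CCNB1 joined the 5 genes there.

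**Figure D1:**
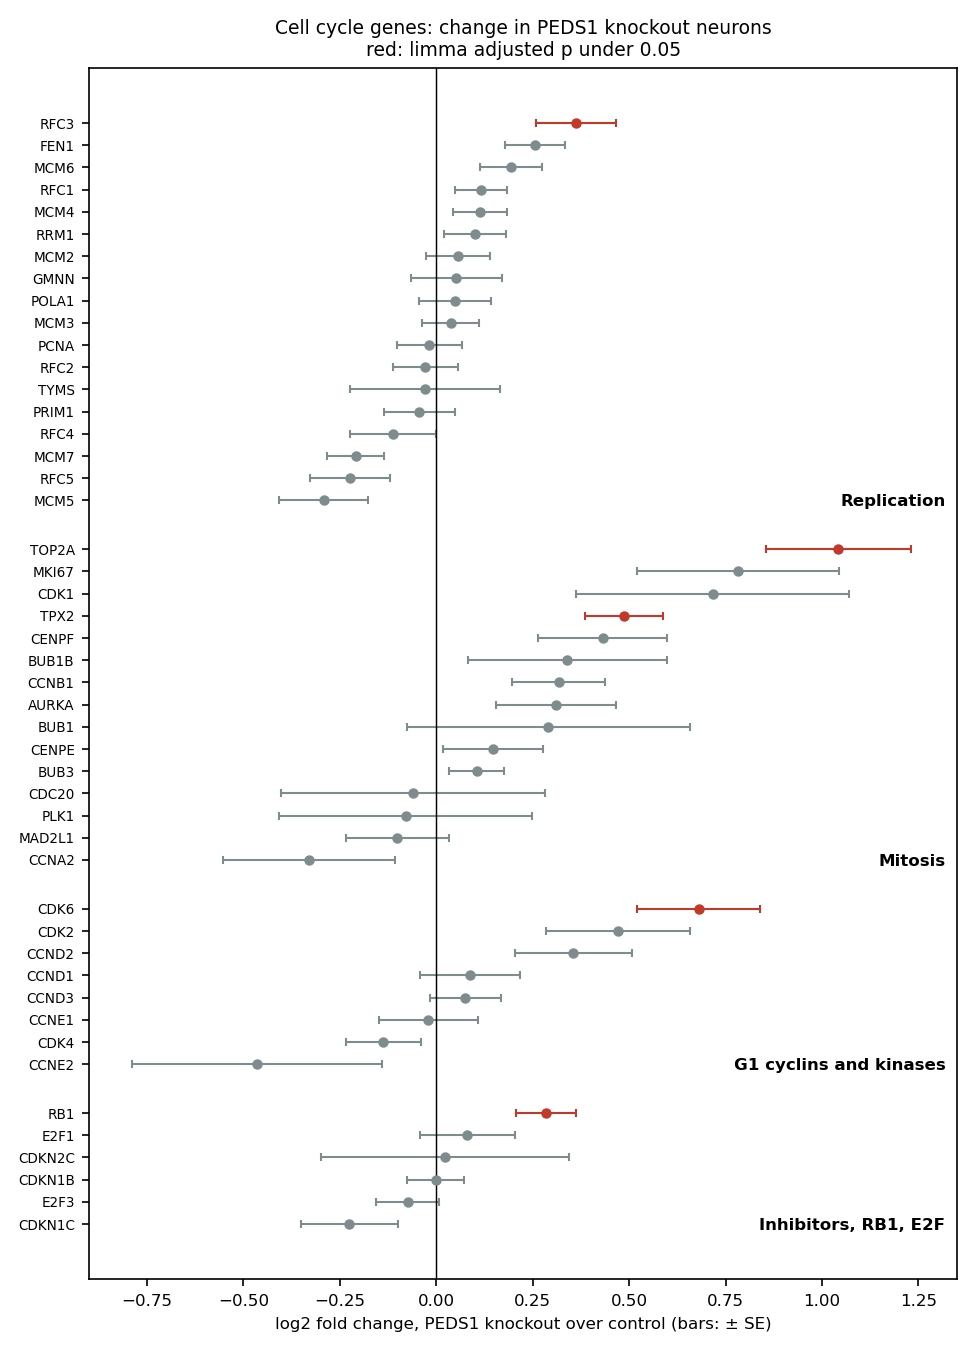
Log2 difference, knockout minus control, of each of the 47 measured genes on the log2(normalized count + 1) scale, ordered within each role, with bars for the standard error of the limma fit (3 libraries a group). Most mitosis genes lie to the right of 0, from -0.33 in CCNA2 to 1.04 in TOP2A, while replication genes lie between -0.29 in MCM5 and 0.36 in RFC3.

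Of the 15 measured mitosis genes TOP2A and TPX2 rose in the libraries labelled knockout, 0 fell and 13 did not pass. The 2 genes make 13.3%, beside 5.95% of all genes called higher. The median log2 difference was 0.31 and the difference was above 0 in 11 genes. In 8 of the 15 (53.3%) all libraries labelled knockout lay above all controls, and in 0 all lay below, beside 19% of all genes above and 18.2% below. The groups of the other 7 overlapped.

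TOP2A, the type II topoisomerase that untangles and condenses chromosomes in dividing cells, had 60.6, 68.0 and 70.3 normalized counts in replicates 1, 2 and 3 of the libraries labelled knockout, against 32.7, 25.7 and 37.7 in control replicates 1, 2 and 3. The lowest knockout library stood well above the highest control, and the library labelled replicate 3 was the highest of all. The mean was 66.3 ± 5.07 in the libraries labelled knockout and 32.0 ± 6.03 in controls (SD, n = 3 each), a 2.07-fold difference, or 1.04 ± 0.19 on the log2 scale (SE; limma adjusted p = 0.00749). Behind these values were 63, 44 and 62 reads in the libraries labelled knockout and 30, 29 and 61 reads in the controls, few enough for counting error to be a sizeable part of each. Of all genes, 99.5% had a lower log2 difference. Once the library labelled PEDS1 knockout replicate 3 was left out, the difference was 1.00 (limma adjusted p = 0.0134). In bulk RNA, more cells of a dividing type and more RNA per cell cannot be told apart. The gene (ENSG00000131747) lies at chr17:40388516-40417950 on the minus strand of GRCh38.

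TPX2, which builds spindle microtubules and activates Aurora A, had 276, 244 and 285 normalized counts in the libraries labelled knockout, against 187, 190 and 195 in the controls. All libraries labelled knockout were above all controls, and the controls lay close together. The difference was 0.49 ± 0.10 (log2, SE, n = 3 each; limma adjusted p = 0.0144), and 0.44 once the library labelled PEDS1 knockout replicate 3 was left out (limma adjusted p = 0.0175). The call was lost without control replicate 1 (limma adjusted p = 0.0703) and without control replicate 2 (0.0776), within a range of 0.00302 to 0.0776 over 18 alternatives. TPX2 (ENSG00000088325) lies at chr20:31739271-31801805 on the plus strand.

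**Figure D2:**
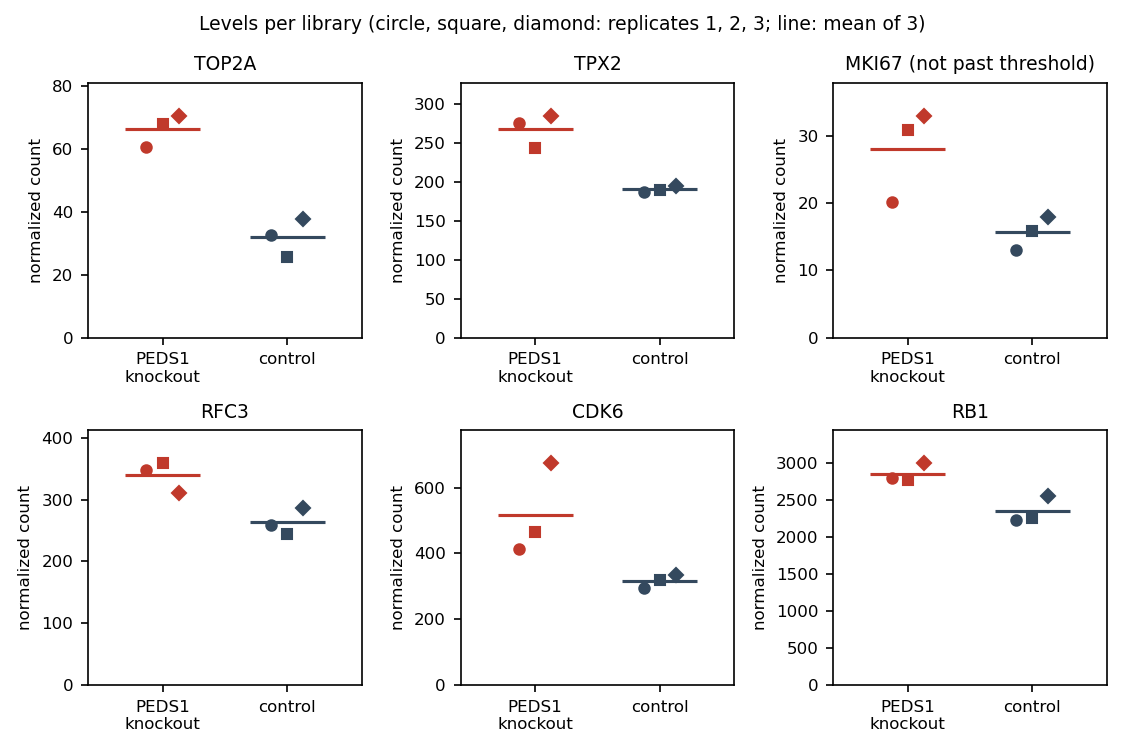
Normalized count per library of the 5 genes past the limma threshold and of MKI67, which did not pass, with the libraries labelled PEDS1 knockout left of the controls, a circle, square and diamond for replicates 1, 2 and 3 and a line at the mean; each panel starts at 0 on its own linear axis. In every panel all libraries labelled knockout lie above all controls, and in CDK6 the library labelled PEDS1 knockout replicate 3 lies far above the other two.

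MKI67, the nuclear protein Ki-67 used to count cycling cells, had 20.2, 30.9 and 32.9 normalized counts in the libraries labelled knockout, against 13.1, 15.9 and 17.9 in the controls. The groups did not overlap, but the lowest knockout library was near the highest control. The difference of 0.78 ± 0.26 (log2, SE, n = 3 each) missed the threshold (limma adjusted p = 0.0735), and it rested on 20 to 29 reads in the libraries labelled knockout and 12 to 29 in the controls. CDK1, the kinase that drives entry into mitosis, had 12.5, 18.5 and 10.2 normalized counts in the libraries labelled knockout, against 8.71, 5.31 and 9.88 in the controls. Its highest control reached almost the lowest knockout library, and its difference of 0.72 ± 0.35 did not pass (limma adjusted p = 0.194). CDK1 had 10 or more reads in 2 libraries labelled knockout and in 1 control.

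CCNB1, the cyclin partner of CDK1, had 316, 270.5 and 239 normalized counts in the libraries labelled knockout, against 205, 221 and 233 in the controls. The library labelled PEDS1 knockout replicate 3 lay near the highest control and the other 2 well above it. The difference was 0.32 ± 0.12 (log2, SE; limma adjusted p = 0.105) with all libraries, and 0.41 without that library (limma adjusted p = 0.0283). BUB3, a spindle checkpoint protein that also binds chromatin in interphase, had by far the most reads of the mitosis genes, with 4416, 4204 and 4027 normalized counts in the libraries labelled knockout, against 3704, 3994 and 4064 in the controls. Its groups overlapped (log2 difference 0.10 ± 0.07, limma adjusted p = 0.337).

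CENPF (0.43), CENPE (0.15) and BUB1B (0.34), proteins of the kinetochore and its checkpoint, also had all libraries labelled knockout above all controls in these log2 differences, without passing the test. In AURKA, the Aurora A kinase of the spindle poles (0.31), and BUB1, a checkpoint kinase (0.29), the groups overlapped. They also overlapped in 4 genes with log2 differences below 0. These were CCNA2, the cyclin of S phase and G2 (-0.33), the checkpoint protein MAD2L1 (-0.10), the mitotic kinase PLK1 (-0.08) and CDC20, which activates the anaphase-promoting complex (-0.06). Limma adjusted p-values of these 9 genes were 0.109 or more.

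The promoters of TOP2A and MKI67 are shown because mitosis genes are known to share 2 short elements, the CHR and the CCAAT box, which lie close to the start of transcription. Each run is the RefSeq sequence (GRCh38.p14) from 250 bases before to 50 bases after an annotated start, read 5′ to 3′ on the gene's strand, with CHR letters (TTTGAA or TTCGAA) and CCAAT letters in capitals on either strand, so that CCAAT can appear as ATTGG and the CHR as TTCAAA. TOP2A is at chr17:40417847-40418146 and MKI67 at chr10:128126374-128126673, both on the minus strand.
TOP2A: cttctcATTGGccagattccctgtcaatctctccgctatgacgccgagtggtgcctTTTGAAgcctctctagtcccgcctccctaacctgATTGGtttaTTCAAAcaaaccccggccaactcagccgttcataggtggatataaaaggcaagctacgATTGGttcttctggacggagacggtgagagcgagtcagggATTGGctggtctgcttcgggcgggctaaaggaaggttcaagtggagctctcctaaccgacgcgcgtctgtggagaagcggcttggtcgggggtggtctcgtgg
MKI67: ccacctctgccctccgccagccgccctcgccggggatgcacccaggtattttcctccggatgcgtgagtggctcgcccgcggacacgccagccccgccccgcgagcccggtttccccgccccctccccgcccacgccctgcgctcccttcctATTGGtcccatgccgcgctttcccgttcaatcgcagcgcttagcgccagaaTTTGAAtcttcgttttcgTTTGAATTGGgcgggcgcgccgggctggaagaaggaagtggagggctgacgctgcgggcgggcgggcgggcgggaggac
The TOP2A window held 2 CHR matches, whose first letters lie at -194 and -151 from the start, and 4 CCAAT matches at -244, -160, -93 and -53. The MKI67 window held 2 CHR matches at -47 and -29 and 2 CCAAT matches at -98 and -24, and the matches at -29 and -24 share a letter.

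Of the 53 genes 41 had a promoter in the RefSeq table, 15 of them mitosis genes. A CHR match stood in 11 of these 15 (73.3%), a CCAAT match in 13 (86.7%), and both in 10 (66.7%). Over 11677 genes of the expression table with a promoter, 15.6% held a CHR match, 43.0% a CCAAT match and 6.54% both. Over all 35116 promoters of this length the shares were 16.4% for CHR and 34.6% for CCAAT. The members were chosen by function, and windows were searched by letters only, so a match describes the sequence and is not shown to be a site. Of the measured genes with a promoter, 1 of 12 with a CHR match and 3 of 25 without one were called higher, beside 8.95% of 1821 genes with a match and 6.11% of 9860 without one in the whole table. The median log2 difference was 0.24 in the 12 genes and 0.04 in the 25, beside 0.04 and 0.00 in the whole table. TPX2 had no promoter in the RefSeq table, and RB1 counts among the 25. The only RB1 window (chr13:48476200-48476499) lies inside the gene, which starts at 48303726, so the sequence at that start was not searched.

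**Figure D3:**
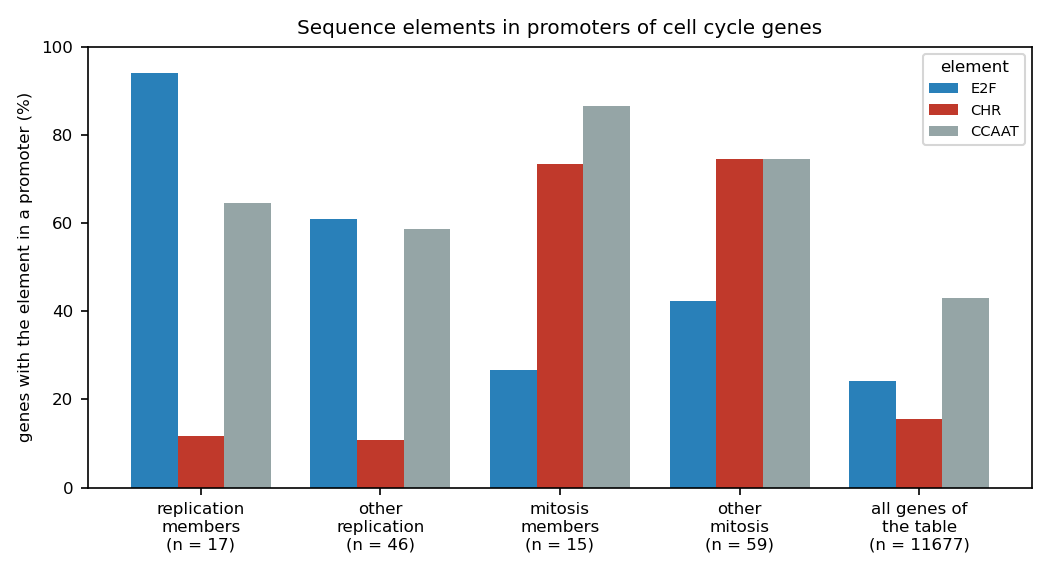
Share of genes, in percent, whose 300-base promoter window holds a match to E2F, CHR or CCAAT letters, for the replication genes (17 with a promoter), other replication genes (46), the mitosis genes (15), other mitosis genes (59) and all genes of the expression table (11677). E2F letters stand in 94.1% of the replication genes and CHR letters in 73.3% of the mitosis genes, against 24.3% and 15.6% of all genes. The other replication genes hold E2F letters in 60.9% and the other mitosis genes CHR letters in 74.6%.

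The replication genes were far more abundant per length than the mitosis genes, and most of their differences were near 0. Per kb of transcript, the median control level was 300.9 normalized counts for the replication genes and 9.11 for the mitosis genes. Of 18 replication genes RFC3 rose, 0 fell and 17 did not pass, and the median log2 difference was 0.04. The 1 gene makes 5.56%, beside 5.95% of all genes called higher and 7.69% called lower. In 5 of the 18 (RFC3, FEN1, MCM6, MCM4 and RFC1) all libraries labelled knockout lay above all controls. In MCM7, MCM5 and RFC5 all lay below, and in 10 the groups overlapped. The 5 genes make 27.8%, beside 19% of all genes above in this way and 18.2% below.

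RFC3, a subunit of replication factor C that loads the PCNA ring onto DNA, had 348, 359 and 311 normalized counts in the libraries labelled knockout, against 259, 245 and 287 in the controls. The groups did not overlap, and the library labelled PEDS1 knockout replicate 3 lay nearest to the controls. The difference was 0.36 ± 0.10 (log2, SE, n = 3 each; limma adjusted p = 0.0445), and 0.42 without that library (limma adjusted p = 0.0175). The call was narrow, and 7 of 18 alternatives lost it, with an adjusted p of up to 0.207 without control replicate 2. RFC3 (ENSG00000133119) lies at chr13:33818049-33966558 on the plus strand. None of the other subunits passed. RFC1, the large subunit, had 2100, 2117 and 2072 normalized counts in the libraries labelled knockout, against 1853, 1944 and 2008 in the controls, and its log2 difference was 0.12 (limma adjusted p = 0.265). The log2 differences of RFC2, RFC4 and RFC5 were -0.03, -0.11 and -0.22, none of which passed. Per kb of transcript, the highest of the 5 subunits, RFC2, stood 3.14 times above RFC3 in the libraries labelled knockout and 4.11 times above it in the controls.

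FEN1, the flap nuclease that trims Okazaki fragments and serves base excision repair, had 1413, 1448 and 1277 normalized counts in the libraries labelled knockout, against 1125, 1150 and 1186 in the controls. All libraries labelled knockout were higher, and the difference of 0.26 ± 0.08 (log2, SE, n = 3 each) just missed the threshold (limma adjusted p = 0.0538). Once the library labelled PEDS1 knockout replicate 3 was left out, it was 0.31 (limma adjusted p = 0.00797), and the authors' deposited table gives FEN1 an adjusted p of 0.0335. Exons of FEN1 overlap TMEM258 on the opposite strand, and the sources used here do not give whether the counting used strand. Exons overlap a gene on the opposite strand in 18 of the 47 measured genes, among them MCM7, RFC4, RRM1, TYMS, CDK4, CDK6 and CCND2, but not in TOP2A, TPX2, RFC3 or RB1.

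The MCM2-7 ring, the helicase that unwinds DNA at replication forks, had subunits on both sides of 0, none of them past the test. MCM7 had 3326, 3182 and 2887 normalized counts in the libraries labelled knockout, against 3657, 3701 and 3488 in the controls. Every library labelled knockout was lower than every control, yet the difference of -0.21 ± 0.07 (log2, SE) did not pass (limma adjusted p = 0.0884). MCM5 (-0.29) was below the controls in every library labelled knockout as well, while MCM6 (0.19) and MCM4 (0.11) were above them in every library, and MCM2 (0.06) and MCM3 (0.04) overlapped. Of these MCM6 passed only when the library labelled PEDS1 knockout replicate 3 was left out (log2 difference 0.24, limma adjusted p = 0.0370). Per kb of transcript, MCM7 stood 21.3 times above MCM5 in the libraries labelled knockout and 20.1 times in the controls, although the ring holds 1 copy of each subunit.

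RRM1, the large subunit of the enzyme that makes deoxynucleotides, had 1864, 1878 and 1706 normalized counts in the libraries labelled knockout, against 1567, 1730 and 1786 in the controls, and the groups overlapped (log2 difference 0.10, limma adjusted p = 0.412). PCNA, the sliding clamp of the DNA polymerases, had 931, 937 and 805 normalized counts in the libraries labelled knockout, against 894, 919 and 887 in the controls. It too overlapped (log2 difference -0.02 ± 0.08, limma adjusted p = 0.908). The remaining replication genes were TYMS, which makes thymidylate (-0.03), PRIM1, a primase subunit (-0.04), POLA1, the catalytic subunit of DNA polymerase alpha (0.05), and GMNN, which blocks relicensing of origins (0.05). Their groups overlapped and no limma adjusted p was below 0.756.

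The promoters of RFC3, the called replication gene, and of MCM6 are shown for the E2F letters that replication genes are known to carry. Capitals mark E2F letters, which are TTGGCGC or its variant TTCCCGC or its variant TTGCCGC or its variant TTCGCGC, and, in MCM6, also CHR and CCAAT letters, on either strand. RFC3 is at chr13:33817899-33818198 on the plus strand and MCM6 at chr2:135876394-135876693 on the minus strand.
RFC3: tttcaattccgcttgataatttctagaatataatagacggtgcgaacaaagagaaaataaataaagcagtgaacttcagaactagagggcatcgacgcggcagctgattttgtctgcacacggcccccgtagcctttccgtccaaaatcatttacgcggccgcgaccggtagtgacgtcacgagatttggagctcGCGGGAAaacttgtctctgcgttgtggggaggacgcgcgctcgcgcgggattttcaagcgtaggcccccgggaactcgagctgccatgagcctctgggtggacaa
MCM6: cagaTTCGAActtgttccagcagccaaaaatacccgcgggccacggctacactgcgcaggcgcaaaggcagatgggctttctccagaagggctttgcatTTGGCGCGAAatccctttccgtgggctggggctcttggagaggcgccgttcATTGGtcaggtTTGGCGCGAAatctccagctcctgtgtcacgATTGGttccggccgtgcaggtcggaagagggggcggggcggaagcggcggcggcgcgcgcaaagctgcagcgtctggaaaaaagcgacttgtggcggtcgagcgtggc
RFC3 held 1 E2F match at -55. MCM6 held 4 E2F matches in 2 overlapping pairs, at -151 and -148 and at -89 and -86, with CCAAT matches at -100 and -58 and a CHR match at -246. Of 17 replication genes with a promoter 16 (94.1%) held E2F letters, beside 24.3% of the 11677 genes of the expression table and 13.0% of all 35116 promoters. Among mitosis genes 4 of 15 (26.7%) did. Of the measured genes with a promoter, 1 of 21 with E2F letters and 3 of 16 without them were called higher, beside 6.65% of 2841 genes with E2F letters and 6.52% of 8840 without them in the whole table. RB1, counted among the 16, was searched only in a window inside the gene, and TPX2 had no promoter to search.

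**Figure D4:**
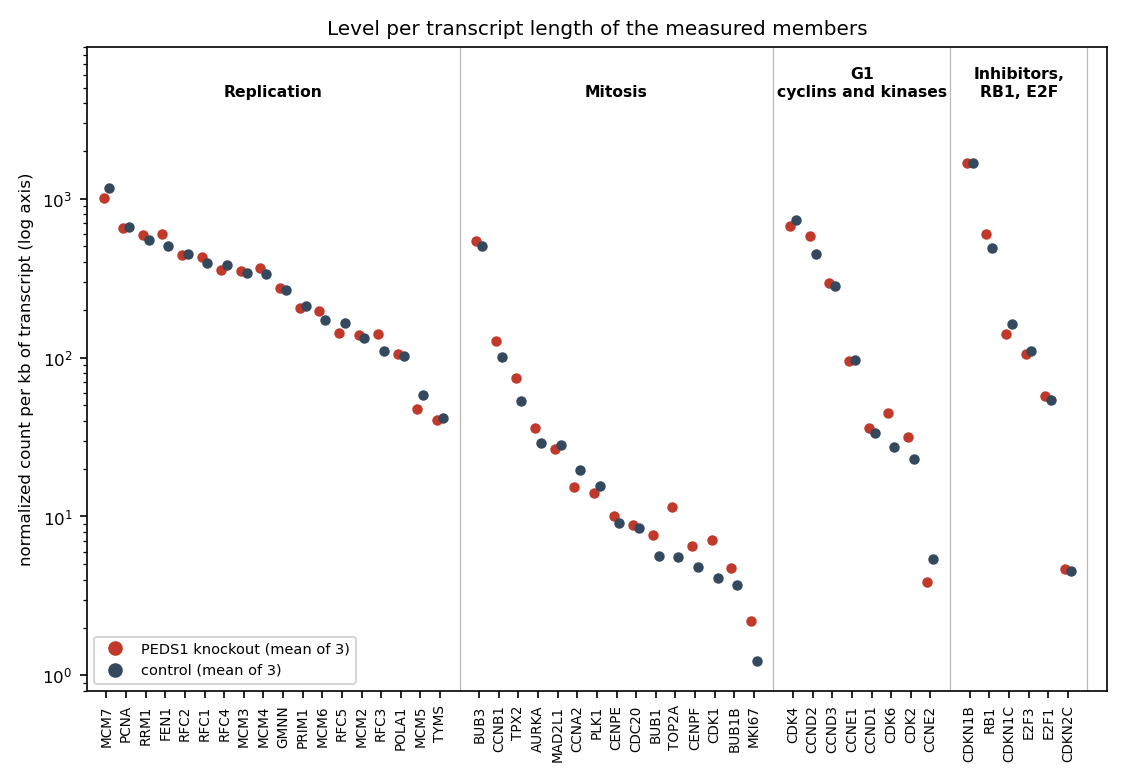
Mean normalized count per kb of transcript (log axis) of each measured gene, grouped by role and ordered by control level, with 3 libraries labelled PEDS1 knockout and 3 controls behind each pair of points. Replication genes lie between about the levels of TYMS (40.6 in the libraries labelled knockout and 41.4 in controls) and MCM7 (1016 and 1172), and most mitosis genes lie below them, down to MKI67 (2.21 and 1.23).

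Among the 8 cyclins and kinases of G1 and its exit, CDK6 rose, 0 fell and 7 did not pass. The 1 gene makes 12.5%, beside 5.95% of all genes called higher and 13.6% called in either direction. CDK6, which pairs with D cyclins to phosphorylate RB1, had 415, 465 and 674 normalized counts in replicates 1, 2 and 3 of the libraries labelled knockout, against 295, 319 and 334 in the controls. All libraries labelled knockout were higher, and replicate 3 stood far above the other 2. The difference was 0.68 ± 0.16 (log2, SE, n = 3 each; limma adjusted p = 0.0221), and 0.47 once the library labelled PEDS1 knockout replicate 3 was left out (limma adjusted p = 0.00997). The call was lost without control replicate 1 (limma adjusted p = 0.102) or control replicate 2 (0.0776), within a range of 0.000797 to 0.102 over 18 alternatives. CDK6 (ENSG00000105810) lies at chr7:92604921-92836594 on the minus strand, and its exons overlap AC002454.1 on the opposite strand.

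CCND2, a D cyclin, showed the same high library without passing. It had 3280, 3097 and 4981 normalized counts in the libraries labelled knockout, against 2857, 2776 and 3046 in the controls. Its difference was 0.36 ± 0.15 (log2, SE; limma adjusted p = 0.141) and 0.14 once the library labelled PEDS1 knockout replicate 3 was left out. CCND2 was also the most abundant D cyclin per kb of transcript, 16.3 times above CCND1 in the libraries labelled knockout and 13.3 times in the controls. CDK4, the sister kinase of CDK6, had 1469, 1516 and 1183 normalized counts in the libraries labelled knockout, against 1512, 1540 and 1506 in the controls (log2 difference -0.14, limma adjusted p = 0.358). CCND3, the remaining D cyclin, had 729, 731 and 668 in the libraries labelled knockout and 734, 683 and 607 in the controls (log2 difference 0.08, limma adjusted p = 0.608).

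CDK2, the kinase of S phase entry, lay above the controls in every library labelled knockout, at 67.3, 77.3 and 73.7 against 57.7, 39.8 and 61.7 normalized counts in controls, but did not pass (log2 difference 0.47 ± 0.19, limma adjusted p = 0.118). The groups overlapped in CCND1 (0.09) and in the E cyclins that pair with CDK2, CCNE1 (-0.02) and CCNE2 (-0.46). CCNE2 was low, with 6 to 19 reads in the libraries labelled knockout and 15 to 38 in the controls.

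Of the 6 inhibitors, pocket protein and E2F genes, RB1 rose, 0 fell and 5 did not pass. The 1 gene makes 16.7%, beside 5.95% of all genes called higher and 13.6% called in either direction. RB1, the pocket protein that holds E2F factors in check, had 2799, 2768 and 2992 normalized counts in the libraries labelled knockout, against 2230, 2257 and 2549 in the controls. The groups did not overlap, and control replicate 3 was the highest of the controls. The difference was 0.28 ± 0.08 (log2, SE, n = 3 each; limma adjusted p = 0.0378), and 0.25 once the library labelled PEDS1 knockout replicate 3 was left out (limma adjusted p = 0.0296). Without control replicate 1 or control replicate 2 the limma adjusted p was 0.172 and 0.193, and 6 of 18 alternatives lost the call. RB1 (ENSG00000139687) lies at chr13:48303726-48599436 on the plus strand.

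CDKN1B, the inhibitor p27 that holds cyclin-CDK complexes inactive in resting cells, was the highest of all the measured genes per kb of transcript, at 1670 in the libraries labelled knockout and 1669 in controls. It had 4683, 4555 and 4074 normalized counts in the libraries labelled knockout, against 4428, 4311 and 4567 in the controls, and its log2 difference was -0.00 ± 0.07 (SE; limma adjusted p = 0.992). E2F3, an activating E2F, had 481, 507 and 510 in the libraries labelled knockout and 503, 533 and 542 in the controls (log2 difference -0.07). CDKN1C, the inhibitor p57, lay below the controls in every library labelled knockout without passing (-0.23, limma adjusted p = 0.242). E2F1, another activating E2F (0.08), and CDKN2C, an inhibitor of CDK4 and CDK6 (0.02), overlapped, and CDKN2C had only 7 to 19 reads in the libraries labelled knockout and 9 to 21 in the controls.

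The levels were also summed over each role. The 18 replication genes together held 617, 612 and 549 RPM in replicates 1, 2 and 3 of the libraries labelled knockout, against 586, 604 and 599 in control replicates 1, 2 and 3. The 15 mitosis genes held 203, 193 and 180 in the libraries labelled knockout, against 169, 180 and 183 in the controls, most of it from BUB3. In RPM both sums overlapped between groups and were lowest, among the libraries labelled knockout, in replicate 3. For mitosis the overlap depended on the scaling: in normalized counts the sum was 5632, 5359 and 5152 in the libraries labelled knockout, against 4654, 4917 and 5045 in the controls, so every library labelled knockout was above every control. The replication sum overlapped on that scale too. The G1 sum was 229, 224 and 278 in the libraries labelled knockout and 210, 209.6 and 215 in the controls, with CCND2 and CDK6 both at their highest in replicate 3 of the libraries labelled knockout. The sum of the inhibitors, RB1 and E2F was 304, 298 and 278 in the libraries labelled knockout and 277, 277 and 294 in the controls.

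**Figure D5:**
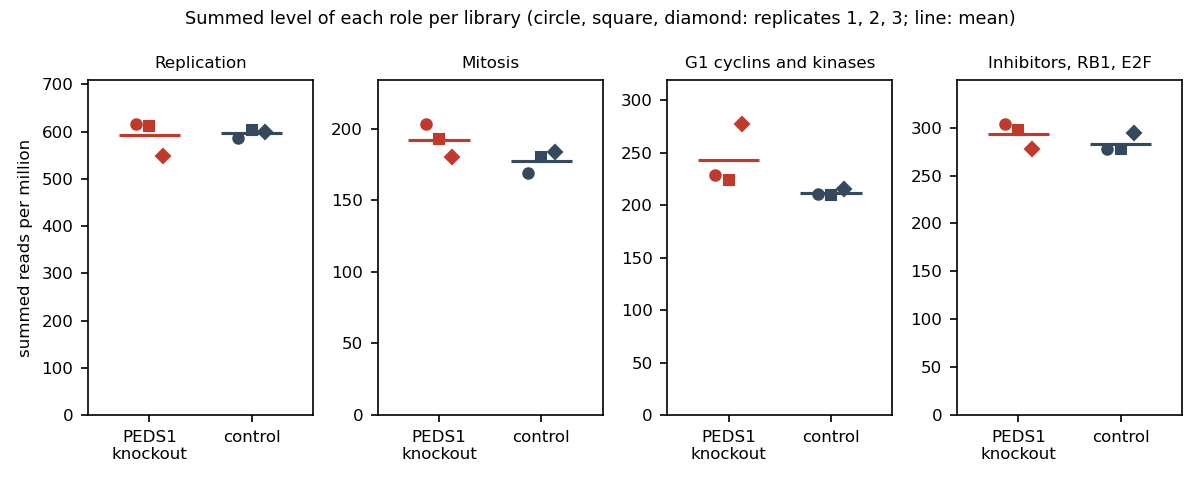
Summed level of each role in each library, in RPM (recovered reads scaled to the library total), with the libraries labelled PEDS1 knockout left of the controls, a circle, square and diamond for replicates 1, 2 and 3 and a line at the mean. On this scale the replication, mitosis and inhibitor sums overlap between groups (the mitosis sum does not in normalized counts), and the G1 sum of the library labelled PEDS1 knockout replicate 3 (278) stands apart.

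Other genes of the same pathway, from lists that hold none of the 53, were counted in the same fit. Of 135 measured (159 listed), 8 were higher and 7 lower, and their median log2 difference was 0.08. Of the 135, 11.1% were called and 5.93% were higher, beside 13.6% of all genes called, 5.95% higher and 7.69% lower. All 6 calls among 54 mitosis genes were higher (11.1%, beside 5.95% of all genes called higher). They included HMMR, a spindle protein, with 66.4, 63.4 and 54.4 normalized counts in the libraries labelled knockout, against 21.8, 30.1 and 35.2 in the controls, and no overlap (log2 difference 1.08 ± 0.21, limma adjusted p = 0.0104). The others named by smallest adjusted p were SMC4, a condensin subunit (0.45, 0.00766), RACGAP1 (0.38, 0.0209) and ANLN (0.51, 0.0222) of cytokinesis, and SGO1, which protects sister cohesion (1.04, 0.0334), each with its log2 difference and limma adjusted p. Of 46 replication genes (6.52% called), TIMELESS, which protects forks, rose (0.30, limma adjusted p = 0.0308), while POLD2, a subunit of DNA polymerase delta (-0.40, 0.0298), and RECQL4, a helicase (-0.57, 0.0372), fell. Of 14 genes of the anaphase-promoting complex (14.3% called), CDC27 rose (0.24, limma adjusted p = 0.0459) and ANAPC2 fell (-0.45, 0.0306), and neither passed with GC and length trends removed (0.268 and 0.0942). POLD2 did not pass there either (-0.19, limma adjusted p = 0.0675), and RECQL4 was at -0.27 (0.0484). SGO1 lost its call once the library labelled PEDS1 knockout replicate 3 was left out (1.01, limma adjusted p = 0.0516).

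Of 21 further inhibitors, pocket proteins and E2F or DREAM genes, 4 fell and 0 rose (19% called), beside 7.69% of all genes lower, 5.95% higher and 13.6% called. CDKN1A, the inhibitor p21, had 156, 148 and 141 normalized counts in the libraries labelled knockout, against 345, 355 and 343 in the controls, and its groups lay far apart (log2 difference -1.22 ± 0.10, limma adjusted p = 7.15e-05). LIN37 (-0.87, limma adjusted p = 0.00678), E2F4 (-0.41, 0.0146) and RBL2 (-0.31, 0.0258) also fell. With GC and length trends removed E2F4 was at -0.23, still past the threshold.

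Markers of dividing cell types were measured beside these genes, and their part in the results was not tested. Of 12 pluripotent stem cell markers 6 were measured, with a sum of 90.6 to 97.6 RPM in the libraries labelled knockout and 78.0 to 79.6 in the controls. LIN28A (log2 difference 1.08) and SALL4 (0.51) rose and SOX2 (-0.47) fell, while POU5F1 and NANOG were not analysed here. Of 12 neural progenitor markers 10 were measured, and PAX6 rose (0.89) while SOX2 fell. Their sums were 1113 to 1240 in the libraries labelled knockout and 1052 to 1132 in the controls, and these ranges overlapped. NES made up most of that sum and did not pass (log2 difference 0.15, limma adjusted p = 0.166). The sum of 8 measured glial markers was 21.5 to 22.7 in the libraries labelled knockout and 17.6 to 18.4 in the controls, while GFAP, ALDH1L1, SOX10 and AIF1 were not analysed here. The sum of 5 mesenchymal and endothelial markers was 162 to 202 in the libraries labelled knockout and 219 to 230 in the controls, where COL1A2 rose (1.08) and TAGLN fell. THY1, which neurons also express, made up nearly all of that sum, with a mean of 4982 normalized counts in the libraries labelled knockout and 6010 in the controls, and did not pass (log2 difference -0.28, limma adjusted p = 0.0530).

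GC content of transcripts in the called genes was 39.1% in TOP2A, 46.8% in TPX2, 39.5% in CDK6, 39.1% in RFC3 and 37.3% in RB1. The median was 48.2% over all genes and 45.4% over the 47 measured genes. TPX2 lay above the median of the 47, and the other called genes lay below it. Genes that did not pass, such as CENPE (35.3%) and CDK1 (37.0%), also lay below it. With the trends on GC content and length taken out of each library, the 5 genes stayed higher, with log2 differences of 0.90 in TOP2A, 0.46 in TPX2, 0.48 in CDK6, 0.33 in RFC3 and 0.17 in RB1, each past the limma threshold. FEN1, CCNB1, CCND3 and E2F1 were also called there, making 9 of 47 higher and 0 lower, beside 11.2% of all genes higher and 9.2% lower (20.4% in all).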

How the data were processed

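PolyA RNA of 3 PEDS1 knockout and 3 control libraries was sequenced from TruSeq stranded libraries as single-end 100 bp reads, per the labels' protocols, which give 1 batch. STAR 2.7.10b, DESeq2 and the build GRCh38 are named in the submitters' processing notes; the sources used here do not name the counting tool or annotation. For every gene the authors deposited 6 signal values, 1 for each library, made by dividing read counts by a size factor. Each library has a smallest step, the worth of 1 read, and 100% of values came out whole in it (tolerance 1e-06), which gave the recovered reads. No gene fell short of 10 reads in at least 3 libraries. The deposited table also holds the authors' log2 fold change, their p-value before and after adjustment, and a Wald score.

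The values were fitted with limma 3.58.1 (R 4.3.3) as log2(normalized count + 1), with a trend in the empirical Bayes variance; p-values were adjusted by Benjamini-Hochberg over all 16625 genes, and an adjusted p under 0.05 was called. Fold changes are on this scale, which understates low genes. Alternatives were the authors' adjusted p-values, edgeR 4.0.16 and DESeq2 1.42.0 on recovered reads, TMM and quantile scaling, pseudocounts of 0.5 and 5, mean count filters of 10 and 100, a replicate block, removal of GC and length trends (4-df natural splines over the 96.5% of genes with a GENCODE 29 transcript), and leaving out each library. Per-kb levels, coordinates and exon overlaps use the same transcripts' genes. The fit was tested on simulated data. No replicate pair agreed within sampling noise (mean chi-square per gene 2.65 to 11.74 among controls). It was 10.46 between replicates 1 and 2 of the libraries labelled knockout. Between these and replicate 3 it was 31.45 and 19.51.

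The members and the other gene lists were chosen with earlier results of these data known. Every measured member is named; members past the threshold, the 3 with the largest mean per role and those singled out have values per library, and of other lists up to 5 genes a direction with the smallest adjusted p under 0.05. A result for 1 listed marker gene is not reported here.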

Additional observations from a re-analysis of the deposited data

How the results depend on the processing

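No member was called lower and no called difference changed sign under any alternative run, and TOP2A was called in all 17 that tested it (adjusted p 0.00128 to 0.0404). The members called, 5 with all libraries, were 3 under the replicate block and 9 with GC and length trends removed. Replication members called, 1 in the report, were 0 with edgeR, TMM scaling or the replicate block, and 2 with the authors' adjusted p-values, DESeq2, a mean count of 100 or more, and GC and length trends removed with or without the block. Mitosis members called were 1 at a mean count of 100 or more, which leaves 4 of 15 in the test. Of the G1 genes 2 were called with trends removed, with or without the block. Of the inhibitors, RB1 and E2F, 0 were called under the block, 2 with trends removed, and 0 with both. Other cell cycle genes called, 15 in the report, were 9 under the block. The PEDS1 level difference passed with the authors' adjusted p-values and with DESeq2 (-0.48), quantile scaling (-0.52), and trends removed with or without the block (-0.62). Over all genes, trends removed gave 1793 higher and 1476 lower, against 990 higher and 1279 lower. Beyond what a fit of fewer genes or samples implies, the cause was not tested.

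Leaving out 1 library at a time gave 582 to 3577 genes called over all, 1 to 8 members, 0 to 3 replication, 1 to 3 mitosis, 0 to 1 G1 and 0 to 1 inhibitor, RB1 and E2F members, 3 to 22 other cell cycle genes, and a PEDS1 difference of -0.77 to -0.37. Without control replicate 1 or 2, TOP2A was the 1 member called. Without the library labelled PEDS1 knockout replicate 2 there were 3 members, and without replicate 3 there were 8. Same-numbered libraries did not deviate together (correlations -0.30, 0.10 and -0.05 over 11705 genes), and not every library correlated best with its own number. With 3 libraries a group, these correlations cannot show whether same-numbered libraries were handled together. Depth limits the low genes: the median standard error was 0.25 under a mean of 100 normalized counts and 0.09 above it.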

Other observations

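Subunits of DREAM, the complex that is known to repress cell cycle genes through CHR and E2F elements in resting cells, were singled out after their values had been seen. Of 11 measured genes 3 fell, 0 rose and 8 did not pass, beside 7.69% of all genes called lower and 5.95% higher, and the median log2 difference was -0.04. LIN37, a MuvB core subunit, had 79.9, 78.8 and 61.3 normalized counts in the libraries labelled knockout, against 129.6, 152 and 122 in the controls, and was called in all 18 alternatives. E2F4, the repressing E2F of the complex, had 867, 876 and 846 in the libraries labelled knockout, against 1247, 1172 and 1034 in the controls, and was called in 16 of 18. RBL2, the pocket protein p130, had 1532, 1360 and 1505 in the libraries labelled knockout, against 1819, 1764 and 1857 in the controls, and was called in 14 of 18. In all 3 genes every library labelled knockout was below every control. Among the 8 that did not pass, every library labelled knockout was above every control in LIN52 (log2 difference 0.18) and TFDP2 (0.30). LIN52 passed without the library labelled PEDS1 knockout replicate 3 (0.22, limma adjusted p = 0.0335). The groups of the remaining DREAM genes overlapped.

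Of the measured condensin subunits, which compact chromosomes, SMC4 and SMC2 were higher and the others did not pass. Those were NCAPG (log2 difference 0.25), NCAPH (0.23), NCAPD3 (0.12), NCAPD2 (0.04), NCAPG2 (-0.03) and NCAPH2 (-0.31). Every library labelled knockout was above every control in NCAPG, NCAPH and NCAPD3, and below every control in NCAPH2. SMC4 had 585, 555 and 584 normalized counts in the libraries labelled knockout, against 417, 406 and 436 in the controls (log2 difference 0.45 ± 0.08, limma adjusted p = 0.00766, called in 17 of 18 alternatives). SMC2, named outside the rule for other genes, had 1369, 1389 and 1666 in the libraries labelled knockout, against 1173, 1167 and 1160 in the controls (0.33 ± 0.09, limma adjusted p = 0.0353, called in 12 of 18), and 0.18 with GC and length trends removed. FOXM1, a transcription factor that drives genes of G2 and mitosis, had 26.0, 27.8 and 44.2 in the libraries labelled knockout, against 14.2, 19.5 and 21.0 in the controls, without overlap and without passing (0.79 ± 0.27, limma adjusted p = 0.0775).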
